A study of Mus musculus with 8 samples.

Results

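The mitosis and spindle genes described here are 40 genes for entry into mitosis, the spindle checkpoint, the kinetochore, spindle motors and mitotic exit, and 39 of them were measured among the 18193 genes on the arrays. They were chosen by name: a gene counted as measured when the platform annotation gave at least 1 probe set with that single symbol, and of several such probe sets the one with the highest average across the 8 arrays stood for it. Ccnb1, the main mitotic B-type cyclin, had no such probe set and has no value here.

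The arrays measured messenger RNA in mouse haematopoietic stem cells (HSC) and in the broader KSL gate (lineage negative, Kit+, Sca-1+), 2 arrays for each of 4 groups. Leukemic mice were chimeras made in CD45.1+ hosts from CD45.1+ marrow mixed with an equal number of CD45.2+ marrow cells that carried the BCR-ABL and SCL-tTA transgenes. BCR-ABL, a fusion kinase, causes chronic myeloid leukaemia, and SCL-tTA turns it on in the stem and progenitor compartment when tetracycline is taken away. Normal mice were made the same way without BCR-ABL. The cells measured were CD45.1+ in every group, so they did not carry the transgene themselves, and they were sorted 4 weeks after tetracycline withdrawal as CD150+ CD48- KSL cells (HSC) or as the whole KSL gate, which also contains HSC. The series text names an amplification kit for small RNA amounts (Nugen Ovation Pico) and the labelling text a standard Affymetrix method, so the amplification is not settled here. Some free-text sample descriptions speak of embryos and were not used, and both KSL samples of leukemic mice, whose titles name both kinds of mouse, were placed by their disease state label. Nothing in the labels says that the 2 samples of a group are from different animals. The p-values measure the spread between these samples, which may be technical in the leukemic groups. The 2 arrays of each normal group differed in their sex-linked genes, so they were not repeats of the same cells.

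Dividing cells switch these genes on late in the cell cycle. Cyclin-dependent kinase 1 with its A- and B-type cyclins starts mitosis, Aurora and Polo-like kinases and kinesin motors build the spindle, and the checkpoint holds separase and the anaphase-promoting complex back until every kinetochore is attached. Long-term HSC are known as a mostly resting population, while the progenitors that share the KSL gate divide more often.

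Array medians lay between 5.74 and 5.86 on the deposited log2 scale, and 14.9% to 15.8% of probe sets per array sat at the floor of that scale, 3.32. No measured mitosis gene touched the floor on any array. The correlation between the 2 arrays of a group, across genes and not across samples, was 0.965 and 0.958 in HSC of normal and leukemic mice, and 0.988 and 0.994 in KSL. Arrays numbered 1 of both normal groups carried the male pattern of sex-linked genes and the other 6 did not. Sort markers followed the labels: Slamf1, which encodes CD150, read 8.23 to 9.36 on the 4 HSC arrays and 5.27 to 7.06 on the 4 KSL arrays, and Cd48 read 6.19 to 8.12 against 10.17 to 10.44. The 13 measured HSC markers had a log2 summed level of 13.23 to 13.69 in HSC and 10.60 to 11.60 in KSL, and the 9 measured granulocyte-monocyte progenitor markers 11.00 to 12.87 against 15.08 to 15.53.

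**Figure D1:**
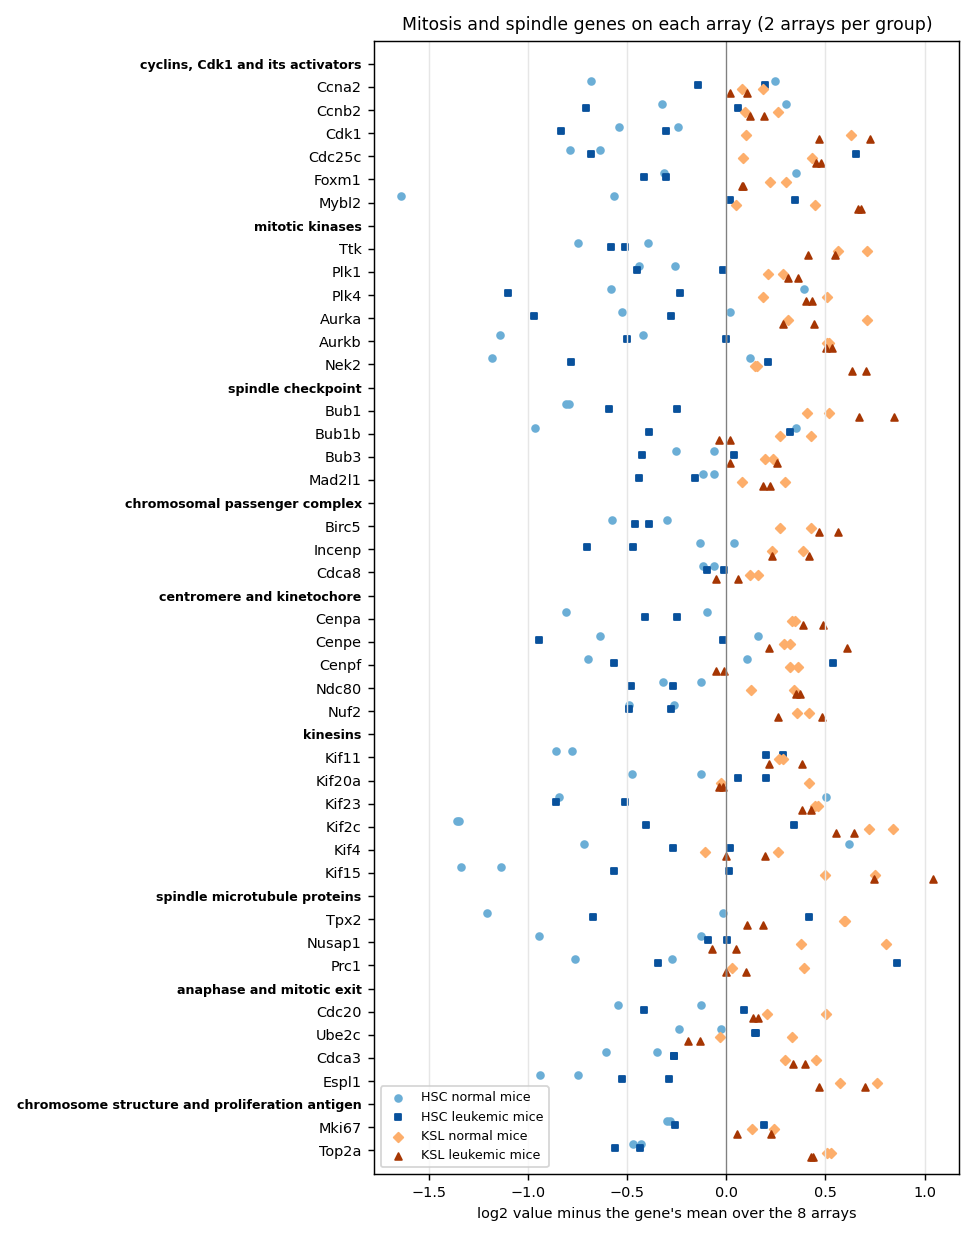
Each point is 1 array's log2 value of 1 gene minus that gene's mean over the 8 arrays (x axis), with the 39 measured genes grouped by role (y axis) and the 4 groups of 2 arrays by colour and shape. The median gene lay between 0.26 and 0.39 above its own mean on the 4 KSL arrays and between 0.26 and 0.49 below it on the 4 HSC arrays.

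In normal mice, every one of the 39 genes had a lower mean in HSC than in KSL, and 8 passed the test. Of all 18193 genes, 50.0% had a difference below 0. The median log2 difference, HSC minus KSL, was -0.69 over the 39 genes and 0.00 over all genes, and single genes ran from -2.13 for Kif2c to -0.13 for Kif4. The threshold was an adjusted p of 0.05 from limma's test with Benjamini-Hochberg adjustment over all genes, and the 8 that passed were all lower in HSC, where 1.00% of all genes were called lower. They were the kinesins Kif2c, Kif15 and Kif11, the kinases Ttk and Bub1, the protease Espl1, the topoisomerase Top2a and the cell cycle protein Cdca3. At an unadjusted p under 0.05 there were 21 genes, all lower in HSC, against 16.2% of all genes in either direction. For 31 genes both HSC arrays lay below both KSL arrays, which was so for 19.3% of all genes. In bulk samples, fewer cells in division and less of the RNA per cell cannot be told apart.

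Top2a, the topoisomerase that untangles chromosomes for mitosis, had the smallest error of the set. It read 9.21 and 9.17 in HSC of normal mice, 9.08 and 9.20 in HSC of leukemic mice, 10.14 and 10.16 in KSL of normal mice and 10.07 and 10.08 in KSL of leukemic mice. The HSC arrays all lay below the KSL arrays, and arrays of the same sorted population were close together whichever mice they came from. HSC were lower by 0.97 ± 0.05 on the log2 scale in normal mice (a log2 difference of -0.97, SE of the fit, n = 2 arrays per group, 1.96-fold, limma adjusted p = 0.0120). The same difference in leukemic mice was -0.93 ± 0.05 (1.91-fold, limma adjusted p = 0.00797). Mki67, the proliferation antigen Ki-67, had a smaller difference: 11.14 and 11.12 in HSC against 11.66 and 11.55 in KSL of normal mice, a log2 difference of -0.47 ± 0.16 with a limma adjusted p of 0.271. The other 2 Top2a probe sets had log2 differences of -0.46 and 0.15 in normal mice.

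Among cyclins, Cdk1 and its activators, 0 of 6 passed in normal mice under limma, and 2 had an unadjusted p under 0.05. Cdk1, the kinase that starts mitosis, read 9.01 and 9.30 in HSC and 9.64 and 10.18 in KSL of normal mice, a log2 difference of -0.75 ± 0.28 (limma adjusted p = 0.297). Mybl2, a transcription factor of late cell cycle genes, read 7.29 and 6.21 in HSC and 7.90 and 8.30 in KSL, a log2 difference of -1.35 ± 0.39 (limma adjusted p = 0.203). Smaller differences were those of the cyclins, -0.35 for Ccna2 and -0.19 for Ccnb2, and of Foxm1, another transcription factor of G2 and mitosis genes, at -0.24, all with overlapping arrays. Cdc25c, the phosphatase that activates Cdk1, had -0.97 with an SE of 0.46.

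Of the 6 mitotic kinases, Ttk alone passed in normal mice. Ttk, the kinase at the head of the spindle checkpoint, read 7.02 and 7.38 in HSC against 8.48 and 8.33 in KSL of normal mice, and 7.19 and 7.26 against 8.32 and 8.18 in leukemic mice. No HSC array reached a KSL array. The log2 difference was -1.21 ± 0.14 in normal mice (2.31-fold, limma adjusted p = 0.0375) and -1.03 ± 0.14 in leukemic mice (2.04-fold, limma adjusted p = 0.0308). Aurkb, the Aurora kinase of the passenger complex, had -1.29 ± 0.29 in normal mice without passing (limma adjusted p = 0.130). Aurka, the spindle pole Aurora kinase, had -0.76, Plk1, the main Polo-like kinase, -0.60, Plk4, the kinase of centriole duplication, -0.44, and Nek2, a centrosome kinase, -0.68.

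In the spindle checkpoint, Bub1 passed and the other 3 genes did not. Bub1, a kinetochore kinase of the checkpoint, read 6.65 and 6.63 in HSC and 7.96 and 7.85 in KSL of normal mice, and 6.85 and 7.19 against 8.29 and 8.11 in leukemic mice. Its HSC arrays lay below its KSL arrays in both kinds of mice. The log2 difference was -1.26 ± 0.13 in normal mice (2.40-fold, limma adjusted p = 0.0314) and -1.18 ± 0.13 in leukemic mice (2.26-fold, limma adjusted p = 0.0226). The checkpoint proteins Bub1b, Bub3 and Mad2l1 had -0.65, -0.37 and -0.28 in normal mice. Bub1b had an SE of 0.49 because its HSC arrays of normal mice were far apart, at 7.66 and 8.98.

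The mitotic exit genes held 2 that passed, Espl1 and Cdca3. Espl1, separase, which cuts the cohesin ring at anaphase, read 7.54 and 7.34 in HSC and 8.86 and 9.04 in KSL of normal mice, and 7.76 and 7.99 against 8.98 and 8.75 in leukemic mice. Each HSC array was below each KSL array. The log2 difference was -1.51 ± 0.14 in normal mice (2.85-fold, limma adjusted p = 0.0252) and -0.99 ± 0.14 in leukemic mice (1.99-fold, limma adjusted p = 0.0348). Cdca3, a trigger of mitotic entry that is itself degraded at exit, read 9.27 and 9.01 in HSC against 9.92 and 10.07 in KSL of normal mice. It read 9.36 and 9.36 against 10.02 and 9.96 in leukemic mice, and no HSC array reached a KSL array. Its log2 difference was -0.85 ± 0.10 in normal mice (limma adjusted p = 0.0428) and -0.63 ± 0.10 in leukemic mice (limma adjusted p = 0.0443). Cdc20, the activator of the anaphase-promoting complex, had -0.69 and Ube2c, its ubiquitin-conjugating enzyme, -0.28, neither past the threshold in normal mice.

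The kinesins held the largest single differences, and 3 of 6 passed in normal mice. Kif2c, the kinesin that takes microtubules apart at centromeres, read 6.47 and 6.46 in HSC and 8.66 and 8.54 in KSL, a log2 difference of -2.13 ± 0.25 (4.39-fold, limma adjusted p = 0.0404). Kif15, a motor that helps keep the spindle bipolar, read 5.25 and 5.05 against 6.88 and 7.14, a log2 difference of -1.86 ± 0.24 (3.63-fold, limma adjusted p = 0.0456). Kif11, the motor that pushes spindle poles apart, read 8.67 and 8.75 against 9.81 and 9.79, a log2 difference of -1.09 ± 0.07 (2.14-fold, limma adjusted p = 0.0149). For all 3 the arrays of HSC and KSL of normal mice were far apart beside their spread. The cytokinesis motors Kif20a and Kif23 had -0.50 and -0.63, and the chromosome motor Kif4 had -0.13 with an SE of 0.47. The Kif4 arrays of normal HSC lay at 6.80 and 8.14, on both sides of its KSL arrays.

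No gene of the passenger complex, kinetochore or spindle microtubule groups passed in normal mice, although all 11 were lower in HSC and 7 had an unadjusted p under 0.05 by limma. Birc5, survivin, came nearest, with 9.06 and 9.34 in HSC against 10.07 and 9.91 in KSL and a log2 difference of -0.79 ± 0.11 (limma adjusted p = 0.0602). Nuf2, a microtubule-binding subunit of the outer kinetochore, followed with -0.76 ± 0.13 (limma adjusted p = 0.0785). Incenp, the scaffold of the passenger complex, had -0.36 and Cdca8, borealin, -0.23. Ndc80, the partner of Nuf2, had -0.46, the centromeric histone Cenpa -0.79, the kinetochore motor Cenpe -0.54 and the kinetochore protein Cenpf -0.64. The spindle proteins Tpx2, Nusap1 and Prc1, which nucleate, attach and bundle microtubules, had -1.21, -1.13 and -0.73.

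The number of genes that passed in normal mice depended on single arrays. It was 8 with all arrays, 3 without array 2 of normal HSC, and 0 without any 1 of the 4 KSL arrays, those of leukemic mice included, which enter this comparison through the shared estimate of the spread. Calls over all genes fell as well: 182 genes were called lower with all arrays, 116 without array 2 of normal HSC, 35 and 27 without array 1 or 2 of normal KSL, and 15 without either array of leukemic KSL. The count of mitosis genes was 2 with a term for the arrays with the male pattern, and 0 without those 2 arrays or with only the 4 arrays compared, where 92, 3 and 0 of all genes were called lower. Among these refits, at least 35 of 39 genes stayed below 0 when 1 array was left out, and the median then ranged from -0.81 to -0.61. Markers of other cells differed too: all 9 granulocyte-monocyte progenitor markers were lower in HSC of normal mice, 6 of them past the threshold, and all 13 HSC markers were higher, 5 past it; no gene of either list sat at the floor on both arrays of a group of normal mice. All 9 multipotent progenitor and lymphoid-primed markers were lower in HSC (5 past the threshold, summed level 11.06 to 11.26 against 12.78 to 13.09), as were all 8 mast cell, basophil and eosinophil markers (2 past it, 7.67 to 7.78 against 11.62 to 12.19) and 6 of 7 T and NK cell markers (2 past it, 9.46 to 9.91 against 11.85 to 12.14). All 8 megakaryocyte markers were above 0, with 0 past the threshold and 2 at an unadjusted p under 0.05 by limma (12.36 to 13.27 against 11.28 to 12.09). The part of these markers in the result was not tested.

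**Figure D2:**
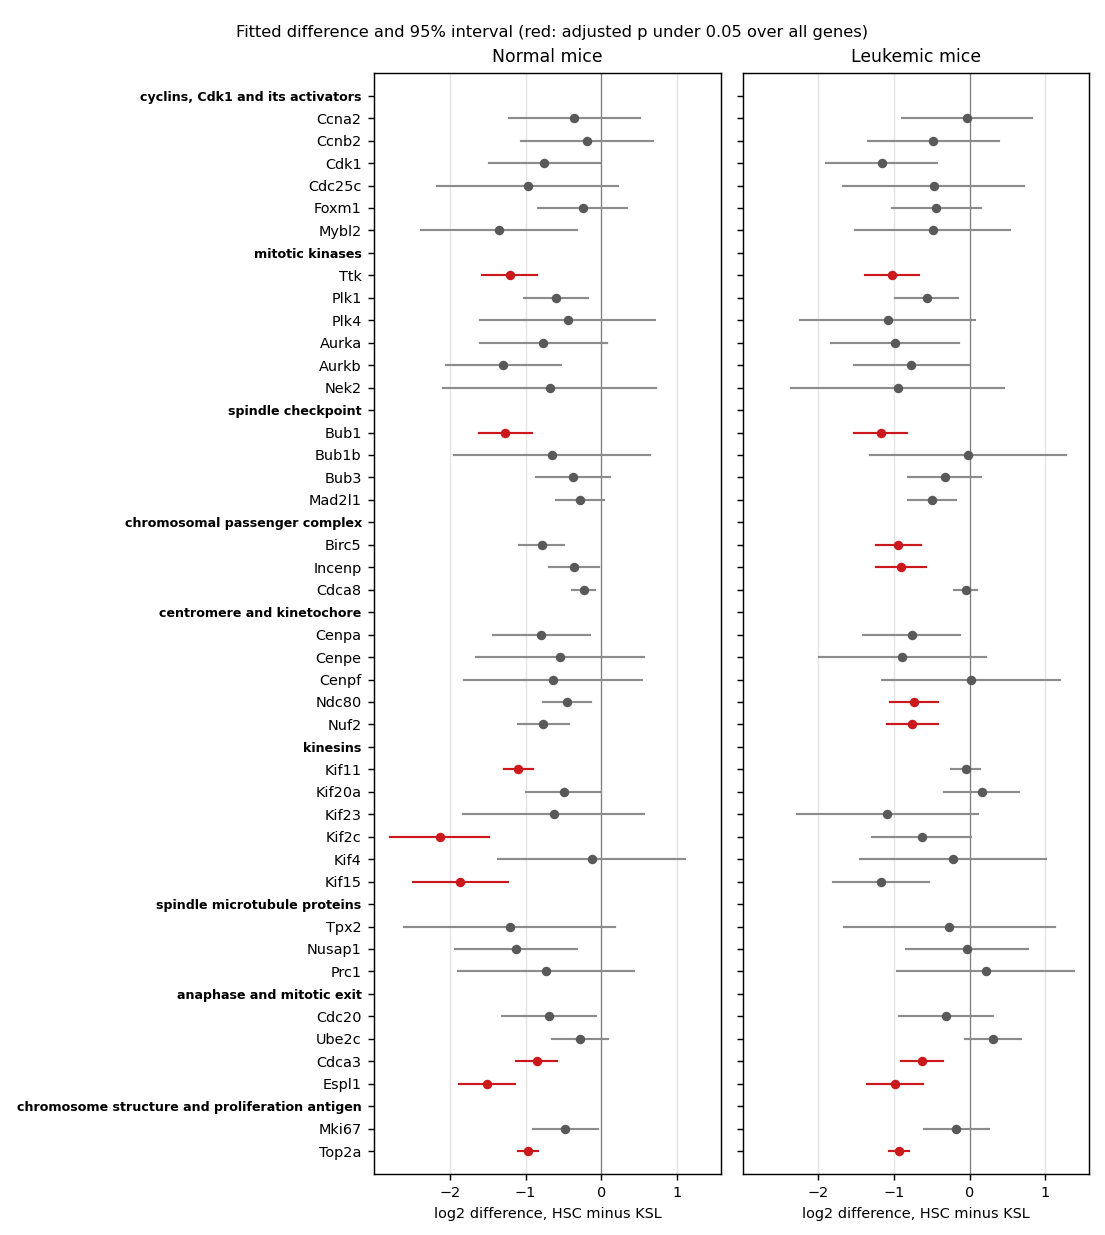
Points are log2 differences, HSC minus KSL (x axis), of the 39 genes by role (y axis) in normal mice (left) and leukemic mice (right), lines are 95% intervals of the fit, and red marks an adjusted p under 0.05. All 39 points lie below 0 in normal mice and 35 of 39 in leukemic mice, with 8 and 9 in red.

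In leukemic mice, 9 of the 39 genes were lower in HSC than in KSL past the threshold, where 2.74% of all genes were called lower. This comparison shares no arrays with the one in normal mice but shares its estimate of the spread. The median log2 difference was -0.57 over the 39 genes and 0.01 over all genes, and 35 genes were below 0, against 41.2% of all genes. The 4 genes above 0 were Ube2c at 0.31, Prc1 at 0.21, Kif20a at 0.16 and Cenpf at 0.02, and none of them passed. At an unadjusted p under 0.05 there were 16 genes, all lower in HSC, against 23.0% of all genes. The HSC arrays lay below the KSL arrays for 25 genes, as for 23.2% of all genes, and above them for 2 genes, as for 28.2% of all genes.

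Bub1, Cdca3, Espl1, Top2a and Ttk passed in both kinds of mice. Birc5, Incenp, Ndc80 and Nuf2 passed in leukemic mice alone, and Kif11, Kif15 and Kif2c in normal mice alone. Passing in 1 and not in the other does not show that the differences are unequal, and in the test of that inequality (the interaction) none of these 7 passed.

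Of the 3 passenger complex genes, Incenp and Birc5 passed in leukemic mice. Incenp read 11.13 and 10.96 in HSC of normal mice, 10.62 and 10.39 in HSC of leukemic mice, 11.32 and 11.48 in KSL of normal mice and 11.32 and 11.51 in KSL of leukemic mice. The leukemic HSC arrays were the lowest, and the 4 KSL arrays were together at the top. The log2 difference between HSC and KSL of leukemic mice was -0.91 ± 0.13 (1.88-fold, limma adjusted p = 0.0331). Birc5 read 9.25 and 9.18 in HSC against 10.21 and 10.11 in KSL of leukemic mice, a log2 difference of -0.94 ± 0.11 (1.92-fold, limma adjusted p = 0.0250). Cdca8, of the same complex, had -0.05 there, with overlapping arrays.

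The outer kinetochore partners Ndc80 and Nuf2 passed in leukemic mice, 2 of the 5 centromere and kinetochore genes. Ndc80 read 7.24 and 7.43 in HSC of normal mice, 7.29 and 7.08 in HSC of leukemic mice, 7.90 and 7.68 in KSL of normal mice and 7.91 and 7.93 in KSL of leukemic mice. Nuf2 read 7.68, 7.91, 7.67 and 7.89 on the 4 HSC arrays in the same order, and 8.59, 8.53, 8.43 and 8.65 on the 4 KSL arrays. Every HSC array was below every KSL array for both. In leukemic mice the log2 differences were -0.74 ± 0.12 for Ndc80 (limma adjusted p = 0.0441) and -0.76 ± 0.13 for Nuf2 (limma adjusted p = 0.0481).

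The 3 kinesins that passed in normal mice did not pass in leukemic mice. Kif11 had a log2 difference of -0.06 there, with a 95% interval from -0.24 to 0.13, and Kif2c read 8.16 and 7.41 in HSC against 8.37 and 8.46 in KSL, a log2 difference of -0.63 (limma adjusted p = 0.231). Kif15 read 6.40 and 5.82 against 7.13 and 7.43, a difference of -1.17 ± 0.24 (limma adjusted p = 0.0699). Cdk1 had -1.16 ± 0.28 (limma adjusted p = 0.0960) and Mad2l1 -0.50 ± 0.12 (limma adjusted p = 0.0983). The 3 spindle microtubule proteins Tpx2, Nusap1 and Prc1 had differences of -0.27, -0.03 and 0.21.

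With single arrays left out, the count in leukemic mice was 9 without either array of normal HSC, 6 without array 1 and 2 without array 2 of leukemic HSC, 1 without either KSL array of normal mice and 0 without either KSL array of leukemic mice. Over all genes, 498 were called lower with all arrays, 532 without either array of normal HSC, 555 and 462 without array 1 or 2 of leukemic HSC, 179 without either array of normal KSL, and 0 and 8 without array 1 or 2 of leukemic KSL. The count of mitosis genes was 1 with a term for the male pattern and 0 without those 2 arrays, where 289 and 46 of all genes were called lower. Across both kinds of mice, 19 of the 39 genes (48.7%) had all 4 HSC arrays below all 4 KSL arrays, which 1353 genes in all did (7.44%). All 9 granulocyte-monocyte progenitor markers were lower and all 13 HSC markers higher in HSC of leukemic mice, 5 and 8 past the threshold. All 8 mast cell, basophil and eosinophil markers were lower too (5 past the threshold, summed level 8.11 to 9.12 against 12.76 to 12.79), and all 8 megakaryocyte markers were higher (4 past it, 13.48 to 13.56 against 10.70 to 10.84). Of the 9 multipotent progenitor and lymphoid-primed markers, 2 were called lower and 1 higher (10.76 to 11.28 against 11.93 to 12.04). Of the 7 T and NK cell markers, 6 were lower, 2 past the threshold (10.06 to 10.14 against 11.87 to 12.21). Of the 10 erythroid markers, 7 were higher, 2 past it (12.32 to 12.57 against 11.28 to 11.37). The 3′ minus 5′ difference of control probe sets, a sign of RNA quality, was 1.19 and 1.03 for Gapdh in HSC against 0.73 and 0.75 in KSL of leukemic mice, and -0.36 and -0.75 for Tfrc against -1.65 and -1.68. For Actb it was -0.42 and -0.50 against -0.53 and -0.53. The part of these measures in the result was not tested.

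The spread between the 2 arrays of a group was larger in HSC than in KSL and was not shared by the genes. The 2 arrays differed by over 0.5 log2 for 16 genes in HSC of normal mice and 14 in HSC of leukemic mice, and for 1 and 0 in KSL. The largest gaps, array 1 minus array 2, were -1.34 for Kif4 and 1.35 for Kif23 in HSC of normal mice, and -1.34 for Cdc25c and 1.10 for Cenpf in HSC of leukemic mice. In HSC of normal mice 19 genes were higher on array 1 and 20 on array 2, so that neither array stood above the other across the set. The 14 mature neutrophil and monocyte markers differed between the same 2 arrays, with summed levels of 11.24 and 13.64.

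Regulatory sequence was looked at for 33 of the 40 genes that had an entry in the RefSeq promoter table (GRCm38.p6, 250 bases before to 50 bases after the start, 35 windows); Kif20a, Tpx2, Aurkb, Ccna2, Incenp, Foxm1 and Cdc25c had none. Genes of mitosis are known for a cell cycle element, the CHR, with the letters TTTGAA, and for CCAAT boxes, bound by NF-Y. The stretches below are the 250 bases before the start, 5′ to 3′ on the gene's strand, of the 4 genes lower in HSC of both kinds of mice with the largest mean difference among those with an entry, and of Kif11, which was added after its values were seen. Capitals mark TTTGAA and CCAAT on either strand (TTCAAA and ATTGG are the same letters on the other strand). Espl1 lies at chr15:102296043-102296292 on the plus strand, Bub1 at chr2:127831860-127832109 on the minus strand, Ttk at chr9:83834439-83834688 on the plus strand, Top2a at chr11:99024190-99024439 on the minus strand and Kif11 at chr19:37376132-37376381 on the plus strand.
Espl1: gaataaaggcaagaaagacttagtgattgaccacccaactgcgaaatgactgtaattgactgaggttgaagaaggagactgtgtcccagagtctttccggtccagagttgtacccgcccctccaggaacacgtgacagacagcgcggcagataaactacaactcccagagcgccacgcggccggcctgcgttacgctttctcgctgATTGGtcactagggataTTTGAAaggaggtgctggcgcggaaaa
Bub1: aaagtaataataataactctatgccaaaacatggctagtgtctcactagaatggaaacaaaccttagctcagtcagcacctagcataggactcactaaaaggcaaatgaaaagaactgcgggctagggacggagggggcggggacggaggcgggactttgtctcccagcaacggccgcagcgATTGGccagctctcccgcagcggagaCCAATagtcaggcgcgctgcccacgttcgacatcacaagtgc
Ttk: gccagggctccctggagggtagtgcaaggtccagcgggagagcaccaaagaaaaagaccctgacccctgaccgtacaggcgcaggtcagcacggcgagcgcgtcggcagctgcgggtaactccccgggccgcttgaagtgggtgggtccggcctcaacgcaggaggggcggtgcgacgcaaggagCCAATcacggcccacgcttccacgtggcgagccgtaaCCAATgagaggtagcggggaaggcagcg
Top2a: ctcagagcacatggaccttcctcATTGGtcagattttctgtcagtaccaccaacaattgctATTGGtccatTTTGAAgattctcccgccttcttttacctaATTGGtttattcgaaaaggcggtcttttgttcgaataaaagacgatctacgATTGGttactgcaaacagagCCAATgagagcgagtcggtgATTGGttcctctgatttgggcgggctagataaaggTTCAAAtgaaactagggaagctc
Kif11: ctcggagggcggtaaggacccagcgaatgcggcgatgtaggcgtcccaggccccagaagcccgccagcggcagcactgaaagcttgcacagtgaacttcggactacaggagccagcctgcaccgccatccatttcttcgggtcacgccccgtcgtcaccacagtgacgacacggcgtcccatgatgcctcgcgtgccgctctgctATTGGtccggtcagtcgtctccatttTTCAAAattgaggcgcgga

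Espl1, Top2a and Kif11 each had a TTTGAA match close to the start, at -27, -23 and -19 (first base, counted from the start), with CCAAT matches further up. Ttk had 2 CCAAT matches, at -65 and -28, and its TTTGAA match at 8, past the printed stretch. Bub1 had CCAAT matches at -68 and -42 and no TTTGAA match in its window. Over all windows of 300 bases, TTTGAA on either strand was in 25 of 35 windows of the mitosis genes (71.4%) and in 17.9% of all 32851 promoter windows. CCAAT was in 26 of 35 (74.3%) against 37.4%, and both motifs in 22 of 35 (62.9%) against 6.95%. In the 150 bases closest to the start (100 before, 50 after), both motifs were in 54.3% against 1.93%. The motifs do not overlap in sequence, and a match is a description of these letters only. Whether the motifs go with the size of a gene's difference was not tested.

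HSC of leukemic mice were then compared with HSC of normal mice, the question being whether HSC without the transgene differ after sharing the marrow with BCR-ABL cells. Of the 39 genes 25 were above 0 and 14 below, against 54.2% above 0 over all genes, with a median log2 difference of 0.17. That median was 0.06 without array 1 of normal HSC and 0.07 without array 1 of leukemic HSC. Kif11 rose and was the only 1 of the 39 that passed, where 0.0605% of all genes were called higher. None was called lower (limma), as 0.0385% of all genes were. At an unadjusted p under 0.05 there were 7 genes, against 13.8% of all genes.

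Kif11 read 8.67 and 8.75 in HSC of normal mice, 9.73 and 9.81 in HSC of leukemic mice, 9.81 and 9.79 in KSL of normal mice and 9.74 and 9.91 in KSL of leukemic mice. The 2 arrays of normal HSC were low and the other 6 lay together. The log2 difference, leukemic minus normal HSC, was 1.06 ± 0.07 (2.09-fold, 95% interval 0.88 to 1.25, limma adjusted p = 0.0458). The call held in 3 of 19 alternative fits and was lost when any 1 array of normal HSC or of KSL was left out (limma adjusted p from 0.0557 to 0.155). In all 19 the difference stayed above 0. With array 1 or array 2 of leukemic HSC left out, 2 of the 39 genes were called higher, while calls higher over all genes went from 11 to 170 and 143. The 2 other probe sets of Kif11 differed from it: 1 read 8.45 and 8.21 in normal and 8.55 and 11.07 in leukemic HSC, so that its log2 difference of 1.48 lay on array 2 of leukemic HSC, and the other read 8.46 and 8.12 against 8.04 and 8.68, a difference of 0.07.

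Besides Kif11, 5 genes were higher and 1 lower in leukemic HSC at an unadjusted p under 0.05, and none passed after adjustment. Kif2c read 6.47 and 6.46 in normal and 8.16 and 7.41 in leukemic HSC, a log2 difference of 1.32 ± 0.25 (limma adjusted p = 0.168), with 0.26, 0.94 and 0.82 in its other probe sets. Kif15 read 5.25 and 5.05 against 6.40 and 5.82, a difference of 0.96 ± 0.24 (limma adjusted p = 0.224). Mybl2 read 7.29 and 6.21 against 8.20 and 7.87, a difference of 1.28 ± 0.39 (limma adjusted p = 0.280). The arrays of these 3 genes did not overlap between the mice, as was so for 11 of the 39 genes higher and 2 lower in leukemic HSC. The share over all genes was not counted for this comparison, so the lack of overlap is a description only. Espl1 had 0.44 ± 0.14 and Bub1 0.38 ± 0.13 (limma adjusted p = 0.300 and 0.330), and Incenp had -0.54 ± 0.13 (limma adjusted p = 0.209). The other Bub1 probe set had -0.20, and those of Incenp had -0.15, 0.39, 0.04 and -0.05.

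By role, the kinesins had a median log2 difference of 0.70 in this comparison and the 3 spindle microtubule proteins of 0.49, while the kinetochore genes had -0.01 and the passenger complex 0.01. These medians use 1 probe set per gene. Among the kinetochore genes, the other Cenpa probe sets had 1.16 and 0.87, those of Cenpf -0.13 and 1.14, and that of Cenpe -0.10. Nusap1 read 9.01 and 8.19 in normal and 9.04 and 9.14 in leukemic HSC, a difference of 0.49, and Prc1 read 7.73 and 8.22 against 8.15 and 9.35, a difference of 0.78. The Nusap1 arrays were narrowly apart and the Prc1 arrays overlapped. The other Nusap1 probe set had the opposite sign, -0.57, and that of Prc1 had 0.63. The 4 mitotic exit genes were all above 0. Ube2c read 11.51 and 11.71 in normal and 11.89 on both arrays of leukemic HSC, against 11.71 and 12.07 in normal and 11.61 and 11.55 in leukemic KSL. It was higher in leukemic HSC and lower in leukemic KSL on every array, with differences of 0.28 and -0.31 (limma adjusted p = 0.483 and 0.732).

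Among the kinases the largest differences were 0.53 for Aurkb and -0.57 for Plk4. The other Plk4 probe sets had the opposite sign, at 0.43 and 0.30, and the other Aurkb probe set had 0.35. Aurkb read 8.03 and 8.75 in normal and 9.17 and 8.67 in leukemic HSC, and 9.68 to 9.70 on all 4 KSL arrays. Plk4 read 7.76 and 8.73 against 8.10 and 7.24 in HSC, and 8.52 to 8.85 in KSL. For both kinases the HSC arrays of the 2 kinds of mice overlapped while the KSL arrays stayed close together. Cenpf read 7.33 and 8.13 in normal and 8.57 and 7.46 in leukemic HSC, with a spread inside each group wider than the difference of 0.28. Cdca8 read 11.56 and 11.50 against 11.61 and 11.52, a difference of 0.04. The other Cenpf probe sets had -0.13 and 1.14, the latter with 6.81 and 7.26 in normal against 8.15 and 8.19 in leukemic HSC. Those of Cdca8 had 0.57 and -0.11.

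The proliferation markers and a pair of regulators had smaller differences. Mki67 read 11.14 and 11.12 in normal and 11.16 and 11.61 in leukemic HSC, a difference of 0.26, and Top2a had -0.05 with a 95% interval from -0.18 to 0.08. Foxm1 read 8.05 and 7.38 against 7.28 and 7.39, a difference of -0.38, and Mad2l1 9.44 and 9.39 against 9.06 and 9.35, a difference of -0.21. None of these 4 genes passed. Foxm1 arrays overlapped between the mice, and the differences of all 4 were smaller than 0.5 log2.

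For 24 of the 39 genes the mean of leukemic HSC lay between those of normal HSC and normal KSL, a description that reuses the same arrays. It is no separate result from the 25 genes above 0. All 39 were lower in normal HSC than in normal KSL, so a gene above 0 lies between unless it exceeds normal KSL. Marker lists also differed between leukemic and normal HSC. All 9 granulocyte-monocyte progenitor markers were above 0, with a median of 2.07 and a summed level of 12.32 to 12.87 against 11.00 to 11.28. Of these 9, 0 passed and 8 had an unadjusted p under 0.05 by limma. The 13 HSC markers were below 0 in 10 cases, with a summed level of 13.23 to 13.37 against 13.58 to 13.69. The mature neutrophil and monocyte markers were above 0 in 13 of 14 cases (14.06 to 14.47 against 11.24 to 13.64) and the mast cell, basophil and eosinophil markers in 8 of 8 (8.11 to 9.12 against 7.67 to 7.78), with 0 past the threshold and 3 and 1 at an unadjusted p under 0.05 by limma. None of these markers sat at the floor on both arrays of either group. Of 8 B cell markers 4, and of 8 megakaryocyte markers 2, were higher in leukemic HSC at an unadjusted p under 0.05 by limma, with 0 past the threshold. Their summed levels were 9.63 to 10.06 against 8.76 to 9.82 and 13.48 to 13.56 against 12.36 to 13.27. The B cell marker Ms4a1 was at the floor on both arrays of both groups. Erythroid markers were below 0 in 9 of 10 cases, 0 past the threshold. The difference between the 3′ and 5′ control probe sets, a sign of RNA quality, was 1.03 and 1.19 for Gapdh in leukemic HSC against 0.73 to 0.89 on the other 6 arrays, and -0.75 and -0.36 for Tfrc against -2.04 to -1.28. For Actb it was -0.50 and -0.42, inside the range of the other 6 arrays, -0.53 to -0.37. The part of these measures in the differences was not tested.

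**Figure D3:**
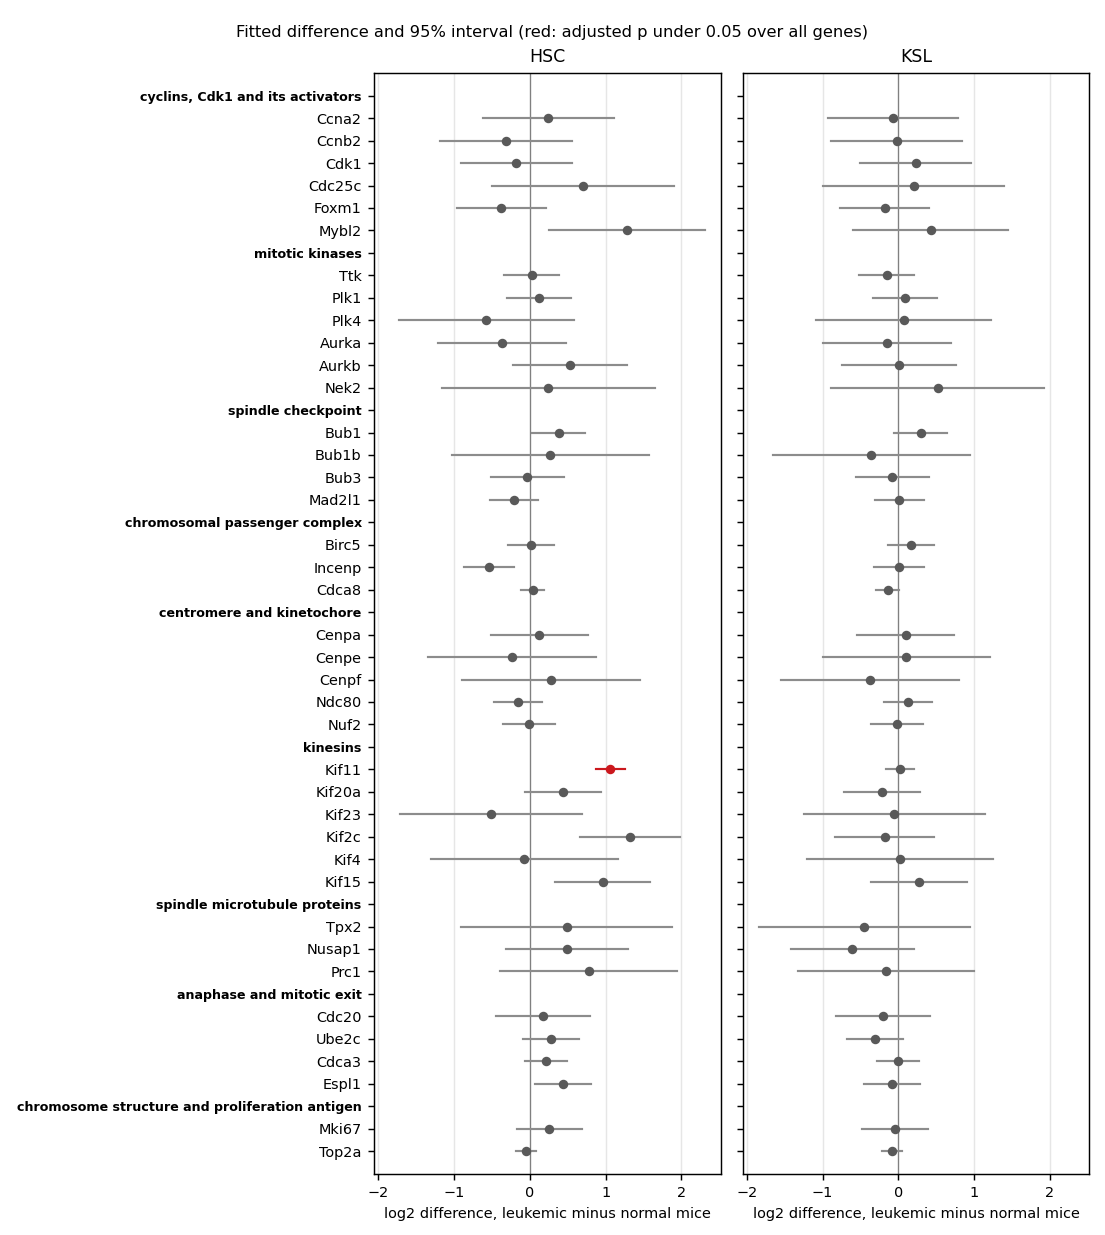
Points are log2 differences, leukemic minus normal mice (x axis), of the 39 genes by role (y axis) in HSC (left) and KSL (right), lines are 95% intervals of the fit, and red marks an adjusted p under 0.05. Kif11 in HSC, at 1.06, is the single red point, and most intervals in both panels cross 0.

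In KSL, 0 of the 39 genes passed between leukemic and normal mice by limma, and 0 had an unadjusted p under 0.05, where 0.0440% and 7.95% of all genes did. There were 17 genes above 0, against 42.6% of all genes, and 22 below, with a median log2 difference of -0.02 and single genes from -0.60 for Nusap1 to 0.52 for Nek2. Nusap1 read 9.51 and 9.94 in normal and 9.06 and 9.18 in leukemic mice, and Nek2 7.80 and 7.79 against 8.35 and 8.28. The arrays of both genes did not overlap between the mice, with limma adjusted p = 0.793 for Nusap1. Cenpf read 8.39 and 8.35 in normal and 7.98 and 8.02 in leukemic mice, Cdca8 11.78 and 11.74 against 11.56 and 11.68, and Foxm1 7.915 and 7.999 against 7.77 and 7.78. Both leukemic arrays of these 3 genes lay below both normal arrays, and those of Mybl2 lay above, with 7.90 and 8.30 in normal and 8.52 and 8.53 in leukemic mice. Arrays overlapped for Mki67, with 11.66 and 11.55 against 11.47 and 11.65, for Mad2l1, with 9.58 and 9.80 against 9.73 and 9.69, and for Prc1, with 8.52 and 8.88 against 8.49 and 8.59. Both arrays were higher in leukemic mice for 8 genes (20.5% of all genes) and lower for 12 (24.1%). A missed threshold does not show equal levels: the 95% intervals had a median half-width of 0.63, and their bounds ran from -1.84 to 1.93. Top2a had an interval from -0.22 to 0.05, Kif11 from -0.16 to 0.21 and Cdca8 from -0.29 to 0.01. With only the 4 KSL arrays in the fit, which vary less than the HSC arrays, 0 passed by limma and 6 had an unadjusted p under 0.05, as did 3044 of all 18193 genes. Of the multipotent progenitor and lymphoid-primed markers, 9 of 9 had a difference below 0 in KSL, 1 past the threshold, and a summed level of 11.93 to 12.04 against 12.78 to 13.09. All 8 mast cell, basophil and eosinophil markers were above 0, with 0 past the threshold and 4 at an unadjusted p under 0.05 by limma (12.76 to 12.79 against 11.62 to 12.19). The HSC markers were below 0 in 11 of 13 cases, 0 past the threshold and 4 at an unadjusted p under 0.05 by limma (10.60 to 10.67 against 11.48 to 11.60). Their part in the values above was not tested.

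The interaction asked whether the difference between leukemic and normal mice was unequal in HSC and KSL. Of the 39 genes 26 were above 0, against 55.2% of all genes. None of the 39 passed (limma, 0.00550% of all genes did), and 4 had an unadjusted p under 0.05, against 9.09% of all genes. Kif11 had the smallest p, with an HSC difference larger than the KSL difference by 1.04 ± 0.10 (95% interval 0.78 to 1.30, limma adjusted p = 0.166). Kif2c followed with 1.50 ± 0.35 (limma adjusted p = 0.370), Incenp with -0.55 ± 0.18 (limma adjusted p = 0.470) and Ube2c with 0.59 ± 0.20 (limma adjusted p = 0.489). The other Incenp probe sets had leukemic minus normal differences from -0.15 to 0.39 in HSC and from -0.27 to 0.61 in KSL. Without array 2 of leukemic HSC, 1 of the 39 genes and 50 of all genes were called higher, against 0 of all genes with every array. The spindle microtubule proteins had the largest interaction by role, with a median of 0.94 over 3 genes: Nusap1 had 1.09, Tpx2 0.94 and Prc1 0.94, each with an interval that includes 0. The other Nusap1 probe set was lower in leukemic mice in both populations, by -0.57 in HSC and -0.72 in KSL. That of Prc1 had 0.63 and -0.22, and those of Tpx2 had 0.68, 0.02 and 0.11 in HSC and 0.02, -0.12 and -0.25 in KSL.

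Other genes of cell division were counted from lists that do not contain the 39. Of 38 other spindle and cytokinesis genes, 35 were lower in HSC of normal mice, with a median of -0.86 and 5 called lower. Kif22, a chromosome arm kinesin, read 8.17 and 8.08 in HSC against 9.26 and 9.33 in KSL, a log2 difference of -1.17 ± 0.09 (limma adjusted p = 0.0197), and Kpna2, an importin that carries spindle factors, had -1.31 ± 0.11 (limma adjusted p = 0.0229). In leukemic mice the median of this list was -0.24 and Kpna2 was the 1 called lower, with -0.96 (limma adjusted p = 0.0226), followed by the kinesin Kif18a at -1.79 (limma adjusted p = 0.0597). Calls lower made up 2.74% of all genes there and 1.00% in normal mice. The same list had a median of 0.37 between leukemic and normal HSC, with 30 of 38 above 0, 0 called by limma and 9 at an unadjusted p under 0.05. Of all genes, 54.2% were above 0 and 13.8% had an unadjusted p under 0.05 by limma in that comparison.

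Of 33 other kinetochore and centromere genes, 29 were lower in HSC of normal mice, with a median of -0.59, 0 called by limma and 15 at an unadjusted p under 0.05. In leukemic mice the median was -0.46 and 2 were called lower, Cenph, an inner kinetochore protein, at -1.09 (limma adjusted p = 0.0168) and Trip13, an ATPase that switches the checkpoint off, at -0.88 (limma adjusted p = 0.0381). The 21 cohesin, condensin and separase control genes had medians of -0.30 and -0.25 in normal and leukemic mice, with 0 called and 1 called lower, the cohesin acetyltransferase Esco2 at -1.44 (limma adjusted p = 0.0459), followed by the condensin subunit Ncapg at -1.26 (limma adjusted p = 0.0516). The 28 DNA replication genes had medians of -0.48 and -0.38, with 0 called in normal mice and 3 called lower in leukemic mice, among them the helicase subunits Gins1 at -1.61 and Gins2 at -1.22 (limma adjusted p = 0.0183 and 0.0472). For the lists with 0 called in normal mice, the counts at an unadjusted p under 0.05 by limma were 9 for cohesin and condensin and 11 for replication. Of all genes, 16.2% had an unadjusted p under 0.05 by limma in normal mice. In leukemic mice 2.74% of all genes were called lower.

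The 16 anaphase-promoting complex genes had medians of 0.04 and 0.06 in normal and leukemic mice, with 0 called in either by limma. At an unadjusted p under 0.05 by limma there were 2 and 5, against 16.2% and 23.0% of all genes. The 21 mitotic entry control genes had -0.30 and -0.15, with 0 called in normal mice (2 at an unadjusted p under 0.05 by limma, against 16.2% of all genes). In leukemic mice 1 was called higher in HSC, Ensa, an inhibitor of the phosphatase PP2A, at 1.10 (limma adjusted p = 0.0230, with 3.13% of all genes called higher). Another 1 was called lower, Tfdp1, the partner of E2F, at -0.82 (limma adjusted p = 0.0456, with 2.74% of all genes called lower). The 13 inhibitors of CDK and of proliferation had -0.19 and 0.32, with 0 called in either by limma. At an unadjusted p under 0.05 they held 5 and 2, against the same 16.2% and 23.0% of all genes. No gene of the 7 lists passed between leukemic and normal mice in HSC or in KSL. At an unadjusted p under 0.05 by limma, HSC held 6 of 16 anaphase-promoting complex genes (2 higher, 4 lower) and 4 of 13 inhibitors (2 higher, 2 lower). The other lists held 8 of 33 kinetochore, 9 of 38 spindle, 2 of 21 cohesin, 4 of 21 mitotic entry and 4 of 28 replication genes. KSL held 4 of 13 inhibitors, all lower, and 4 of 38 spindle genes. It held 1 of 33 kinetochore, 1 of 21 cohesin and 2 of 21 mitotic entry genes, and 0 of the other 2 lists. The shares of all genes at that p were 13.8% in HSC and 7.95% in KSL.

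**Figure D4:**
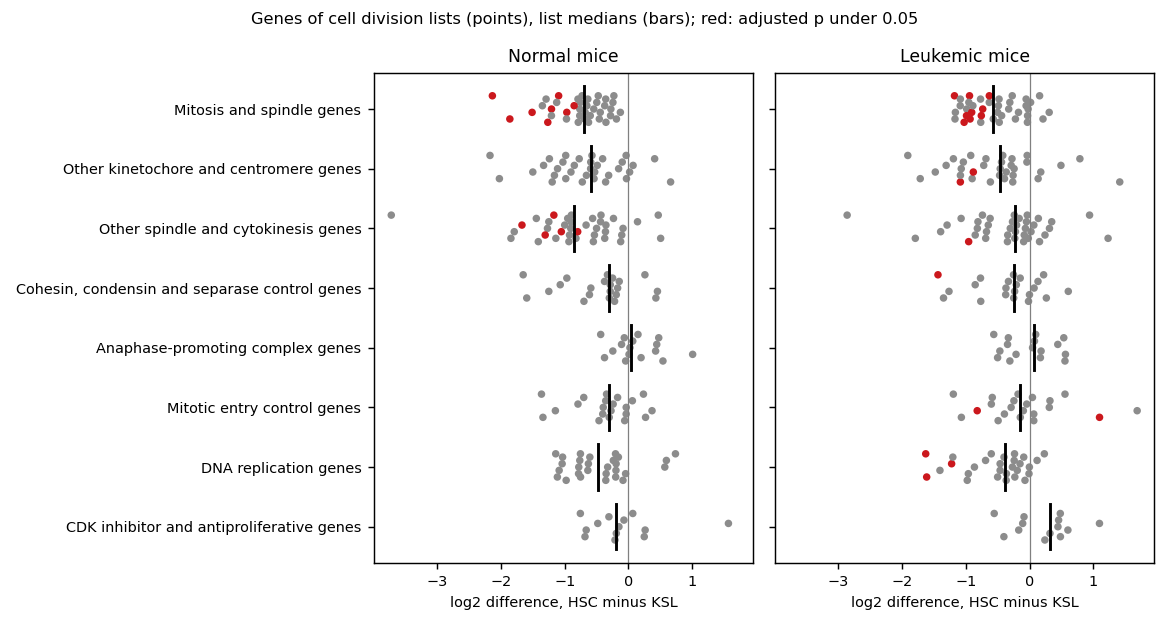
Each point is a gene's log2 difference, HSC minus KSL (x axis), in normal mice (left) and leukemic mice (right), by list (y axis), black bars are list medians and red marks an adjusted p under 0.05. The medians of the 39 mitosis and spindle genes are -0.69 and -0.57, and those of the 16 anaphase-promoting complex genes 0.04 and 0.06.

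Probe sets that did not stand for a gene gave a second reading. There were 50 of them on 26 of the genes, 4 at the floor on every array. Of the other 46, on 25 genes, 44 had a difference below 0 between HSC and KSL of normal mice, with a median of -0.75, and 37 in leukemic mice, with a median of -0.47. Between leukemic and normal mice, 33 were above 0 in HSC and 21 in KSL, with medians of 0.12 and -0.03. They were hybridised on the same arrays and are not independent samples.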

How the data were processed

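The authors deposited 1 table of log2 values for 45101 probe sets on 8 arrays, made with RMA (background correction, quantile normalization and probe set summary) per the submitters' processing notes, with no version given. Aside from 64 controls, 34945 probe sets had 1 gene symbol in the platform annotation, 932 several and 9160 none, and 34741 of those with 1 symbol were found by gene identifier in the RefSeq table of GRCm38.p6, used for names. The 18193 genes were fitted without a filter with R 4.3.3 and its package limma 3.58.1 (eBayes after lmFit, a mean for each group, 4 residual and 0.67 prior degrees of freedom, two-sided, Benjamini-Hochberg over all genes), checked on simulated data. A permutation of 2 against 2 arrays cannot go below p = 0.333, so the fit across all genes is the test, and precision is limited by the number of arrays. There were 5 comparisons, in 4 groups of 2, and 19 alternatives (18 for the interaction). The genes, lists and tests were chosen with earlier results of these data known. Values on every array are given for mitosis genes that passed and for the 2 smallest p of each role between leukemic and normal mice (2 kinases in KSL as a range). From the other lists, the genes named are those with the 2 smallest p in each comparison with calls. No label ties the replicate numbers to an animal or batch, and deviations of same-numbered arrays correlated between -0.04 and 0.09, so the numbers were not used as pairs, although array 1 of both normal groups shared the male pattern. Figures used matplotlib 3.10.9.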

Additional observations from a re-analysis of the deposited data

How the results depend on the processing

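Between HSC and KSL of normal mice the 39 genes kept a median below 0 in all 19 alternatives. The count of genes lower in HSC, 8, was 0 with only the arrays compared, with the replicate block and without both arrays with a male pattern, 2 with a term for the male pattern, and 5 with the mean of all probe sets. It ranged from 0 to 6 with 1 array left out, with medians from -0.81 to -0.61. Between HSC and KSL of leukemic mice the count, 9, was 0 with only the arrays compared and without both male-pattern arrays, 1 with the replicate block and with the male-pattern term, 4 with array weights, and 0 to 9 with 1 array left out. The median moved to -0.48 with the mean of all probe sets. In HSC of leukemic against normal mice the count of 1 (Kif11) was 0 with only the arrays compared, the replicate block, the male-pattern term, both such arrays left out, cyclic loess, a common array median, without the dimmest 40% of genes, with genes that touch the floor left out, with the mean of all probe sets and with array weights. It ranged from 0 to 2 with 1 array left out. Its median was 0.06 with the male-pattern term and without both such arrays (0.0612 and 0.0646), and 0.06 to 0.17 with 1 array left out. The interaction had 0 to 1 genes called higher with 1 array left out. Of the 18 calls of single genes, Top2a in leukemic mice held in 14 of 19 alternatives, Kif11 and Top2a in normal mice in 11, and Nuf2 in 1, and every called gene kept its direction in all 19. The cause of these losses was not tested. Each fit with 1 array left out had 3 residual degrees of freedom, against 4 with all arrays. The spread among 2 arrays per group limits which differences can pass.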
